A study of Homo sapiens with 6 samples.

Results

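ISG15 conjugation, or ISGylation, attaches a small ubiquitin-like protein to other proteins. ISG15 is passed from its activating enzyme (E1, UBA7) to a conjugating enzyme (E2, UBE2L6) and is placed on the target by a ligase (E3, chiefly HERC5 in human cells, with HERC6 as its close relative). USP18 takes ISG15 off again and also binds an interferon receptor chain, where it dampens signalling. All of these genes are known for induction by type I interferons, as is ISG20, a nuclease that shares the naming of ISG15 but takes no part in the conjugation. The 7 genes ISG15, UBA7, UBE2L6, HERC5, HERC6, USP18 and ISG20 were taken by symbol from a table of 19899 genes. They were picked with the BRG1 against Control differences of this table already known, so every BRG1 to Control value given for them is a description and carries no test.

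The values come from RNA-seq of COV434, an established cell line of ovarian origin that the study places among its models of SCCOHT, a rare small cell cancer of the ovary in which BRG1 is lost. BRG1 is the protein made from SMARCA4 and drives chromatin remodeling by SWI/SNF through its ATPase. Control cells (n = 3) received the pCDNA3-neo plasmid and BRG1 cells (n = 3) the PBJ5-BRG1 plasmid. Both received pBABE-puro as well, were put on 2 to 3 µg/ml puromycin after 24 hours and were collected 3 days later, as biological replicates numbered 1 to 3. The groups differ in plasmid backbone as well as in BRG1, and these cannot be told apart. The samples are bulk cell pellets, so that a larger share of expressing cells and more RNA per expressing cell cannot be told apart either.

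Libraries held 29699741 to 63613710 estimated counts, the fewest in BRG1 sample 3. SMARCA4 was at 31.6 to 36.7 CPM (counts scaled to a library of 1000000) in Control and at 1716 to 2319 CPM in BRG1 samples, plasmid transcripts included. SMARCA2, the other SWI/SNF ATPase gene, was at 0.359 ± 0.241 and 0.519 ± 0.341 CPM (SD, n = 3). Of 9 immune cell markers, the 8 other than PTPRC held 0 to 9 counts in any sample. The 9 together summed to 7.55 to 14.7 CPM in Control and 7.85 to 16.2 CPM in BRG1 samples.

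In GRCh38, as annotated by GENCODE release 44, the canonical ISG15 transcript covers chromosome 1 from 1013497 to 1014540 in 2 exons. UBA7 runs from 49805209 to 49813953 on the minus strand of chromosome 3 (24 exons), and UBE2L6 from 57551662 to 57567672 on the minus strand of chromosome 11 (4 exons). HERC6 and HERC5 lie next to each other on the plus strand of chromosome 4, at 88378852 to 88443097 and 88457119 to 88506163, with 23 exons each. USP18 covers chromosome 22 from 18150170 to 18177397 (11 exons) and ISG20 chromosome 15 from 88639016 to 88656483 (4 exons), both on the plus strand.

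Promoters are shown because the complex that type I interferon activates recognises a short motif, the interferon-stimulated response element (ISRE). The 7 genes were picked on this contrast and are known for interferon induction, so matches in them are descriptions and test nothing. RefSeq promoters of GRCh38.p14, from 250 bases before to 50 after the start of transcription, were matched for 5 of the 7 genes (ISG15, UBE2L6, HERC5, HERC6 and ISG20). The core TTTCNNTTTC was searched on both strands. It stood in the promoters of ISG15, HERC5 and ISG20, and in 996 of 27305 promoters overall (3.65%), or 2.85% of the 10789 promoters of genes tested here. The letters were not found in the windows of UBE2L6 and HERC6, and the RefSeq start used for UBE2L6 lies 263 bases upstream of the canonical GENCODE start. The stretches below read 5′ to 3′ on the plus strand, with the ISRE core in capitals. They lie at chr1:1013357-1013426 for ISG15, chr4:88456989-88457058 for HERC5 and chr15:88638917-88638986 for ISG20.
ISG15: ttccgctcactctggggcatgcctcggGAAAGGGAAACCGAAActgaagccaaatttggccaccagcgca
HERC5: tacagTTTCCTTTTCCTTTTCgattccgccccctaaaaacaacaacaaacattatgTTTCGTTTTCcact
ISG20: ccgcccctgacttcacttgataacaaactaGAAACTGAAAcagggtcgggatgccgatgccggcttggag

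In ISG15 a pair of overlapping cores on the minus strand covered bases -113 to -98 from the start. HERC5 had a pair of overlapping cores at -125 to -110 and a further core at -74 to -65, all on the plus strand. ISG20 had 1 core on the minus strand at -69 to -60. The site that interferon gamma activates (GAS, TTCNNNGAA) was in none of the 5 windows and in 7.88% of all promoters. The AP-1 site TGANTCA was in the ISG20 window, at -22 to -16, and in 7.76% of all promoters. These matches are letters in a window, and binding was not measured in these samples.

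ISG15 itself, the modifier, was at 228, 225 and 245 CPM in Control samples 1 to 3 and at 1559, 1857 and 1766 CPM in BRG1 samples 1 to 3. No BRG1 sample was near the Control range. The mean went from 233 ± 10.9 to 1727 ± 153 CPM (SD, n = 3), and the log2 fold change was 2.89 (SE 0.11.) Within the replicate numbers the fold was 6.84, 8.26 and 7.21. ISG15 was the steadiest of the 7 genes in BRG1 samples, with a coefficient of variation of 8.84%.

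UBA7, the E1 enzyme that starts the pathway, was close to absent in Control samples, at 0.321, 0.565 and 0.213 CPM, which were 12, 22 and 13 counts. In BRG1 samples it was at 26.0, 15.9 and 10.2 CPM, or 1678, 883 and 312 counts. The log2 fold change of 5.60 (SE 0.50) was the largest among the 7 genes, from 0.366 ± 0.180 to 17.4 ± 7.97 CPM (SD, n = 3). The groups did not overlap, but BRG1 samples spread widely (coefficient of variation 45.8%), and the fold within numbers was 80.9, 28.2 and 48.1. The small Control counts limit how well that fold is known.

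UBE2L6, the E2 enzyme, was at 24.1, 21.2 and 21.0 CPM in Control and at 163, 138 and 121 CPM in BRG1 samples. It had the smallest log2 fold change of the 7 genes, 2.67 with a standard error of 0.14 (22.1 ± 1.72 to 141 ± 21.0 CPM, SD, n = 3). Like UBA7 it was highest in BRG1 sample 1 and lowest in BRG1 sample 3. The fold within numbers stayed between 5.78 and 6.77.

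HERC5, the main ISG15 ligase in human cells, was at 3.40, 1.72 and 2.31 CPM in Control and at 81.3, 106 and 99.6 CPM in BRG1 samples. Its neighbor HERC6 was at 3.40, 2.95 and 2.70 CPM in Control and at 59.7, 65.2 and 50.3 CPM in BRG1 samples. Both ligase genes were low in Control and well above that range in every BRG1 sample. The log2 fold change was 5.28 (SE 0.27) for HERC5, from 2.48 ± 0.851 to 95.7 ± 12.9 CPM (SD, n = 3). For HERC6 it was 4.28 (SE 0.18), from 3.02 ± 0.352 to 58.4 ± 7.53 CPM (SD, n = 3). HERC5 moved by 23.9, 61.8 and 43.1 fold within numbers and HERC6 by 17.6, 22.1 and 18.6 fold.

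USP18, the protease that removes ISG15, was at 12.7, 10.7 and 9.18 CPM in Control and at 103, 140 and 121 CPM in BRG1 samples. The eraser was therefore higher in every BRG1 sample along with the conjugating enzymes. Its log2 fold change was 3.49 (SE 0.18; 10.9 ± 1.74 to 121 ± 18.6 CPM, SD, n = 3). USP18 has near-identical copies, and 62.3% of the 31-base words of its canonical transcript also occur in other genes, while 33.0% occur in USP41. USP41 made up between 0.476% and 1.66% of the sum of both genes, and that sum differed 11.2-fold between the group means, as USP18 alone did. How reads were divided among the copies is uncertain.

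ISG20, the nuclease outside the conjugation, degrades single-stranded RNA. It was at 0.321, 0.257 and 0.0983 CPM in Control (12, 10 and 6 counts) and at 3.19, 2.31 and 1.81 CPM in BRG1 samples (206, 128 and 55 counts). The groups did not overlap. The log2 fold change was 3.48 (SE 0.49; 0.225 ± 0.115 to 2.43 ± 0.700 CPM, SD, n = 3). It shared with UBA7 and UBE2L6 the order of the BRG1 samples, highest in 1 and lowest in 3.

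**Figure D1:**
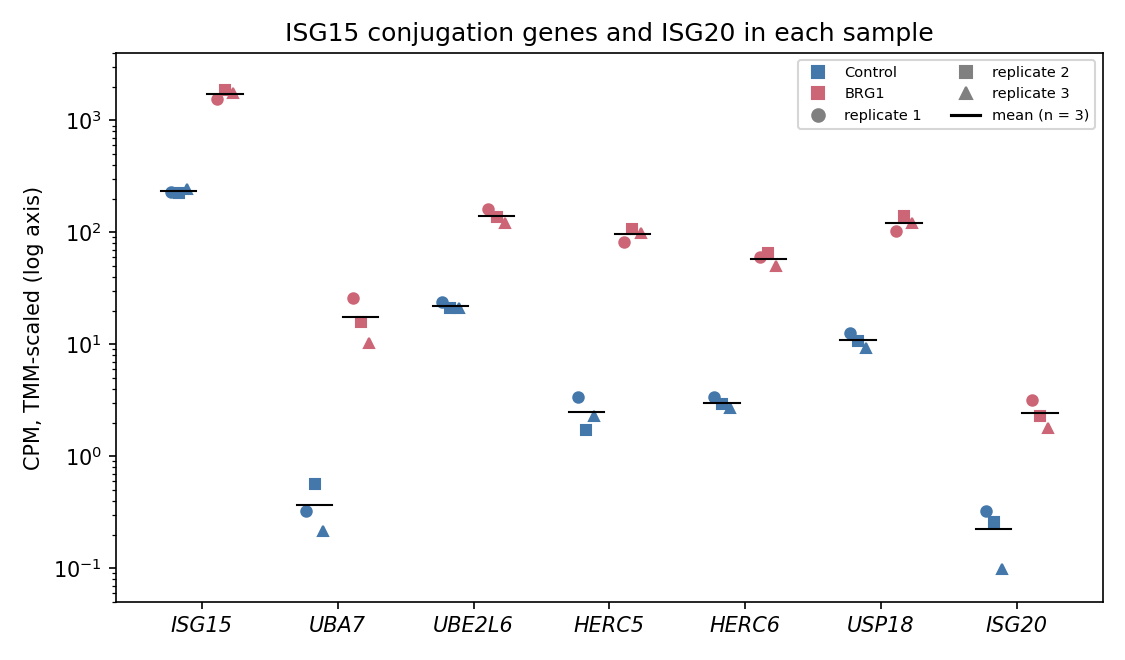
Each point is 1 sample, the vertical log axis gives TMM-scaled CPM, the color gives the group, the shape gives the replicate number and bars mark the mean of 3 samples. All 7 genes are higher in every BRG1 sample, from 1.81 CPM for ISG20 to 1857 CPM for ISG15, and UBA7 and ISG20 start below 1 CPM in Control.

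All 7 genes passed the filter on low counts, 7 were called higher by the quasi-likelihood test of edgeR at an adjusted p under 0.05, and 7 had every BRG1 sample above every Control sample. Over the 14225 genes tested, 9.23% were called higher, 0.984% were called lower and 15.6% had BRG1 samples wholly above Control. Since these genes were picked on the same contrast, nothing is read from those counts. Their median log2 fold change was 3.49 (range 2.67 to 5.60), against -0.04 for all genes tested. Pairs of the 7 genes had Pearson correlations of log2 CPM (0.5 counts added) between 0.939 and 0.997 over the 6 samples, which fall into the 2 groups and share their libraries.

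The balance of the pathway was then compared as CPM per kilobase of the canonical transcript, the scale on which different genes can be set side by side. In Control, ISG15 was at 365 ± 17.1 CPM per kilobase, followed by UBE2L6 at 18.1 ± 1.41 and USP18 at 5.84 ± 0.938 (SD, n = 3). HERC6 (0.799 ± 0.0931) and HERC5 (0.705 ± 0.242) overlapped each other, and so did ISG20 (0.142 ± 0.0724) and UBA7 (0.111 ± 0.0546). The modifier and its E2 were thus present in Control cells while the E1 and both ligases were low. In BRG1 samples the order was ISG15 (2712 ± 240 CPM per kilobase), UBE2L6 (115 ± 17.2), USP18 (65.4 ± 10.0), HERC5 (27.3 ± 3.69), HERC6 (15.5 ± 1.99), UBA7 (5.26 ± 2.41) and ISG20 (1.54 ± 0.442). There no neighbors in the order overlapped between samples.

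UBA7, both ligase genes and USP18 had larger fold changes than ISG15, so that ISG15 exceeded them by less in BRG1 samples. Per kilobase, ISG15 stood at 3903 ± 1960 times UBA7 in Control and at 603 ± 291 times in BRG1 samples (SD, n = 3). Against HERC5 the ratio went from 558 ± 177 to 99.9 ± 5.07, and against USP18 from 63.8 ± 12.9 to 41.8 ± 2.84. Samples of the 2 groups did not overlap in these ratios. The ratio of ISG15 to UBE2L6 was 20.2 ± 2.11 in Control and 23.98 ± 5.02 in BRG1 samples, where the samples did overlap. HERC5 was at 1.08, 0.627 and 0.919 times HERC6 in Control samples 1 to 3 and at 1.47, 1.75 and 2.13 times in BRG1 samples, so that the larger ligase RNA in every BRG1 sample was HERC5. These ratios come from the values that were used to pick the genes and are descriptions.

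Whether the nearest relatives outside the pathway moved as well was examined with the same fit. UBB encodes ubiquitin, the parent of the modifier family, and was at 363 ± 39.2 CPM in Control and 366 ± 9.60 CPM in BRG1 samples (SD, n = 3), which gave a log2 fold change of 0.01 with a 95% interval of -0.24 to 0.27. UBA1, the E1 of ubiquitin, had a log2 fold change of -0.01 (-0.26 to 0.24), and UBE2L3, the E2 most like UBE2L6, one of -0.04 (-0.26 to 0.17). HERC3, of the same ligase family, had 0.06 (-0.19 to 0.31). ISG20L2 and AEN, nucleases related to ISG20, had -0.01 (-0.31 to 0.28) and -0.16 (-0.73 to 0.40). None of these 6 genes was called by edgeR (0 genes, adjusted p between 0.788 and 0.976; 0 at an unadjusted p under 0.05, and 0 by DESeq2), and the intervals leave out changes of the size seen in the pathway. USP41, the near copy of USP18, was the exception at 0.127 ± 0.0820 and 1.72 ± 0.0791 CPM (SD, n = 3), with a log2 fold change of 3.75 (edgeR adjusted p 0.00185), and the division of its reads with USP18 is uncertain. USP41 held 8, 2 and 7 counts in Control samples 1 to 3, so it passed the count filter through the BRG1 libraries alone. It could not be fitted when any 1 of the 3 BRG1 libraries was left out, since it then failed that filter.

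**Figure D2:**
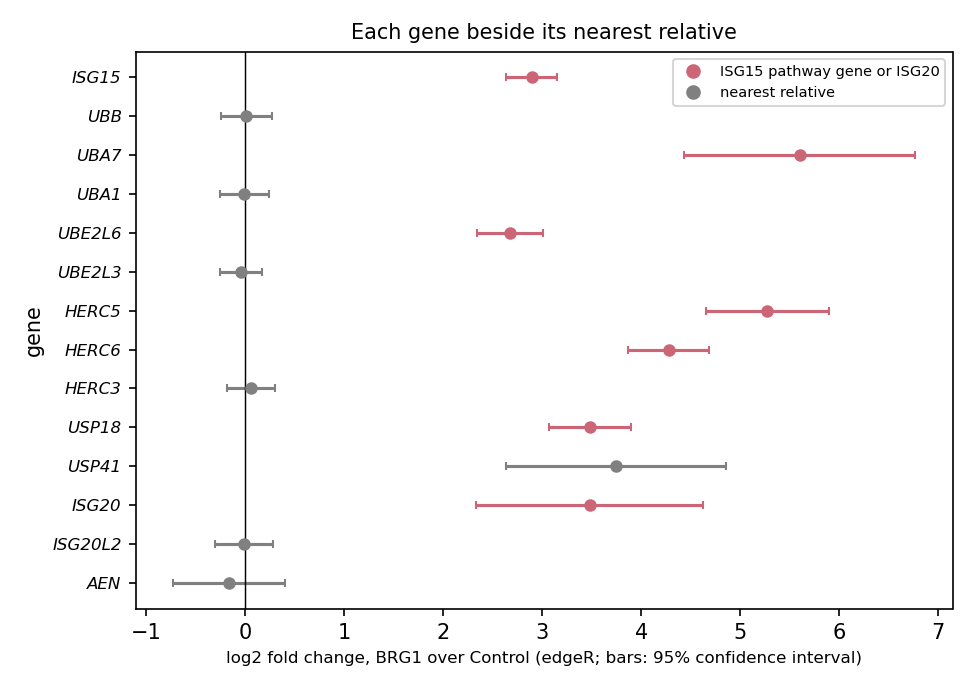
Points are edgeR log2 fold changes of BRG1 over Control and bars are 95% confidence intervals. The ISG15 pathway genes and ISG20 are in red, above their nearest relatives in gray. The relatives lie between -0.16 and 0.06 except USP41 at 3.75, and the 7 genes lie between 2.67 and 5.60.

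Among 13 tested genes with other roles in ISG15 conjugation or binding, 1 was called higher and 0 lower by edgeR (unadjusted p under 0.05 in 0 on that side, and 0 by DESeq2), with a median log2 fold change of -0.04. The gene called was TRIM25, a ligase for ISG15 and for ubiquitin. It was at 138, 128 and 141 CPM in Control and at 384, 338 and 378 CPM in BRG1 samples, with a log2 fold change of 1.43 (SE 0.10, edgeR adjusted p 0.00015). With the replicate number as a block, under which 13.3% of all genes were called higher and 5.5% lower, UBE2E1 was called too (log2 fold change 0.35, edgeR adjusted p 0.0310). UBE2E1, an E2, and the other genes named below for the block were chosen after their values were seen.

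Proteins that have been described as carriers of ISG15 made up the list with the largest share of calls. Of 21 tested, 11 were called higher (52.4%) and 0 lower by edgeR (unadjusted p under 0.05 in 0 on that side, and 0 by DESeq2), and the median log2 fold change was 0.50. The list holds many interferon-induced genes. Among them IFIT1, which binds foreign RNA caps, rose from 20.1 ± 4.84 to 613 ± 81.8 CPM (log2 fold change 4.93, edgeR adjusted p 2.69e-05). DDX58, the RNA sensor RIG-I, rose from 11.1 ± 2.08 to 173 ± 27.3 CPM (log2 fold change 3.97, edgeR adjusted p 4.06e-05). CCND1, the cell cycle regulator cyclin D1, was at 36.1, 19.8 and 12.3 CPM in Control and at 245, 154 and 59.0 CPM in BRG1 samples (log2 fold change 2.75, edgeR adjusted p 0.0177). Its call was lost without Control 2, Control 3, BRG1 1 or BRG1 2 (edgeR adjusted p 0.0520 to 0.0973). Also called were IFIH1, EIF2AK2, MX1, CHMP5, PML and TRIM25, among others. With the replicate block 13 were called higher, with JAK1 and BECN1 added (edgeR adjusted p 0.0315 and 0.00876). Protein conjugates were not measured here.

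The signalling chain that leads from interferon receptors to ISG15 was called in part. Of 18 tested genes, edgeR called 4 higher (22.2%) and 0 lower (unadjusted p under 0.05 in 0 on that side, and 0 by DESeq2), with a median log2 fold change of 0.17. STAT2, a transcription factor of this chain, rose from 77.4 ± 12.8 to 193 ± 19.5 CPM (log2 fold change 1.32, edgeR adjusted p 0.00102) and its partner IRF9 from 33.8 ± 0.640 to 147 ± 14.9 CPM (log2 fold change 2.12, edgeR adjusted p 6.39e-05). Both belong to the complex that binds the ISRE. SOCS1, a feedback inhibitor of JAK kinases, rose from 0.267 ± 0.0637 to 0.978 ± 0.258 CPM (edgeR adjusted p 0.0200), a call lost without Control 2, Control 3, BRG1 1 or BRG1 2 (edgeR adjusted p 0.0696 to 0.0835). IFNAR1 and IFNAR2, the receptor genes, were picked with their values in view and stood at log2 fold changes of -0.08 and 0.07 (edgeR adjusted p 0.857 and 0.870). With the replicate block 7 genes were called, with IFNGR1, JAK1 and SOCS3 added (edgeR adjusted p 0.0298, 0.0315 and 0.00598).

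The parallel modifier systems were compared next. Of 22 tested genes for ubiquitin and the other ubiquitin-like modifiers, edgeR called 2 higher and 2 lower, and the median log2 fold change was -0.10. UBD, which encodes the interferon-inducible modifier FAT10, held 0, 2 and 0 counts in Control and was at 18.2, 17.6 and 2.40 CPM in BRG1 samples, at least 185-fold higher than a floor of 3 counts in each Control library (edgeR adjusted p 0.00181). It could not be fitted when any 1 of the 3 BRG1 libraries was left out, since it then failed the count filter. GABARAPL1, an autophagy modifier, was at 5.08, 3.72 and 2.72 CPM in Control and at 24.4, 15.0 and 7.39 CPM in BRG1 samples (log2 fold change 2.03, edgeR adjusted p 0.0237). That call held without BRG1 3 and was lost without each other library (edgeR adjusted p 0.0509 to 0.107). RPS27A, which encodes ubiquitin fused to a ribosomal protein, fell from 1157 ± 56.9 to 748 ± 39.5 CPM (log2 fold change -0.63, edgeR adjusted p 0.00401). With the replicate block 3 modifiers were called lower, with FAU added (edgeR adjusted p 0.0177, against 0.0770 without the block).

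Few enzymes of those systems were called in the main fit. Of 9 other E1 genes edgeR called 0 (1 lower at an unadjusted p under 0.05, and 0 by DESeq2), with a median log2 fold change of -0.09, and with the replicate block SAE1 was called lower (log2 fold change -0.36, edgeR adjusted p 0.0463). Of 37 other E2 genes edgeR called UBE2QL1 higher, at 0.222 ± 0.192 and 4.28 ± 1.77 CPM (log2 fold change 4.25, edgeR adjusted p 0.00573), and 0 lower (1 at an unadjusted p under 0.05, and 0 by DESeq2). The E2 median was -0.04, and the block added UBE2E1 and UBE2H (edgeR adjusted p 0.0449 for UBE2H). Of 24 other ligases with a HECT domain, the catalytic domain of HERC5, edgeR called 0 (1 in each direction had an unadjusted p under 0.05, and DESeq2 called 0). Their median was 0.04, and the block called HERC1 and NEDD4L higher (edgeR adjusted p 0.0358 and 0.0474).

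Of 48 other ubiquitin-specific proteases, the family of USP18, edgeR called 3 higher and 1 lower, with a median log2 fold change of -0.04. Beside USP41 these were USP53, at 5.84 ± 0.436 and 23.1 ± 11.7 CPM (log2 fold change 1.99, edgeR adjusted p 0.0163), USP43, at 0.399 ± 0.0612 and 1.41 ± 0.436 CPM (log2 fold change 1.83, edgeR adjusted p 0.0187), and USP22, which fell from 425 ± 7.66 to 327 ± 18.7 CPM (log2 fold change -0.38, edgeR adjusted p 0.0430). The calls of USP53 and USP43 held without BRG1 3 and were lost without each other library (edgeR adjusted p 0.0544 to 0.0958). That of USP22 was lost when each of the 6 libraries was left out in turn (edgeR adjusted p 0.0639 to 0.247). With the block 4 were called higher, with CYLD added (edgeR adjusted p 0.0265), and 3 lower, with USP9X and USP44 added (edgeR adjusted p 0.0199 and 0.0472). Of 12 exonucleases related to ISG20 in activity, TREX1, which degrades DNA in the cytosol, was called higher by edgeR at 0.147 ± 0.0601 and 0.647 ± 0.154 CPM (log2 fold change 2.14, edgeR adjusted p 0.0212) and 0 were called lower (2 at an unadjusted p under 0.05, and 0 by DESeq2). The median was -0.07. The TREX1 call was lost without Control 2 or Control 3 (edgeR adjusted p 0.0856 and 0.0868), and TREX1 could not be fitted when any 1 of the 3 BRG1 libraries was left out, for the same filter. The block called EXD2 and PARN lower (edgeR adjusted p 0.0354 and 0.0434).

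**Figure D3:**
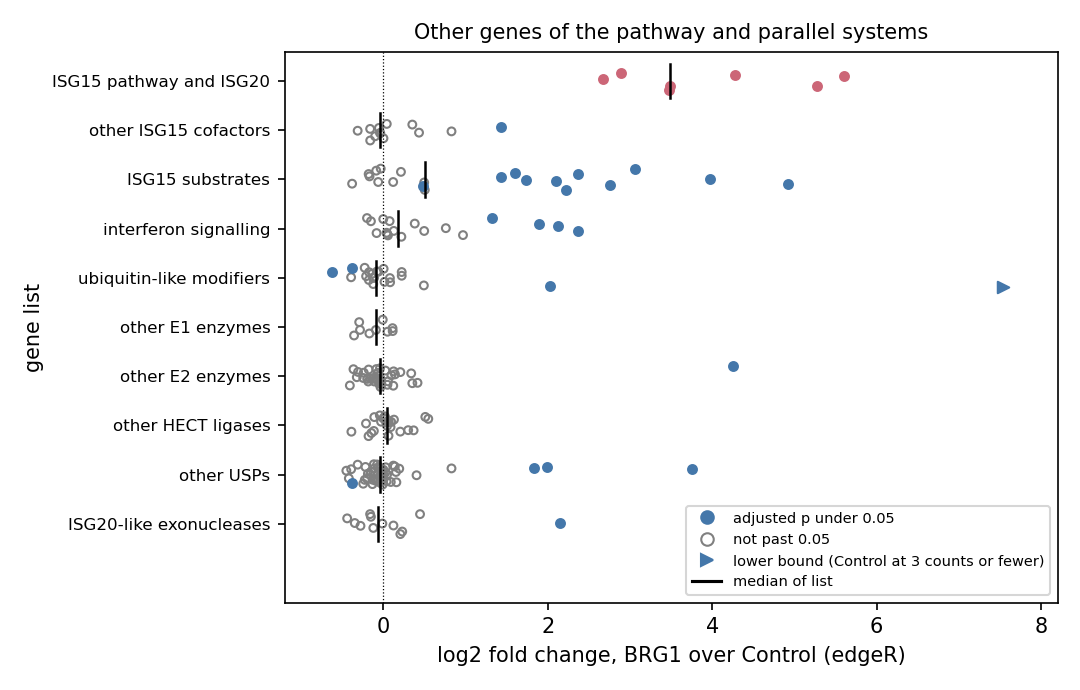
Each point is 1 tested gene, placed by its edgeR log2 fold change of BRG1 over Control. Filled points have an adjusted p under 0.05, black bars mark list medians, and the ISG15 pathway genes and ISG20 are in red. The triangle is UBD at its lower bound of 185-fold, and the medians of the modifier, E1, E2, ligase, protease and exonuclease lists lie between -0.10 and 0.04.

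The surroundings of the 7 genes were examined last, since they lie at 6 separate places in the genome. Among the genes next to them in RefSeq order, 2 on each side, 18 were tested and edgeR called 5, all higher, with a median log2 fold change of 0.08. Over all genes tested, 9.23% were called higher and 0.984% lower. Both flanks of ISG15 were called. HES4, a transcriptional repressor 13.4 kb away by the RefSeq spans, was at 77.6, 45.4 and 48.8 CPM in Control and at 129, 163 and 149 CPM in BRG1 samples (log2 fold change 1.36, edgeR adjusted p 0.00517). The ISG15 gene span of GENCODE release 44 starts nearer to HES4, at 1001138. AGRN, which encodes the matrix protein agrin and lies 5.6 kb away, rose from 436 ± 92.0 to 1167 ± 43.9 CPM (log2 fold change 1.42, edgeR adjusted p 0.000883). These changes were smaller than that of ISG15, at 2.89.

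Beside UBE2L6, SERPING1, the C1 inhibitor of the complement system at 29.8 kb, was at 0.117 ± 0.115 and 1.07 ± 0.467 CPM (log2 fold change 3.06, edgeR adjusted p 0.0260). SMTNL1 at 1.4 kb was at least 4.26-fold higher than a floor of 3 counts in each Control library (edgeR adjusted p 0.0405). PPM1K, a mitochondrial phosphatase 94.3 kb from HERC6, rose from 12.2 ± 2.27 to 22.4 ± 3.44 CPM (log2 fold change 0.87, edgeR adjusted p 0.0294). These last 3 calls were each lost without some libraries. For SERPING1 they were Control 1, Control 2, BRG1 1 and BRG1 2 (edgeR adjusted p 0.0680 to 0.102). For SMTNL1, which could not be fitted when any 1 of the 3 BRG1 libraries was left out, they were each of the 3 Control libraries (edgeR adjusted p 0.0689 to 0.122), and for PPM1K every library but BRG1 1 (edgeR adjusted p 0.0534 to 0.128). AEN, 3.4 kb from ISG20, was not called, and neither was any tested neighbor of UBA7 or USP18.

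**Figure D4:**
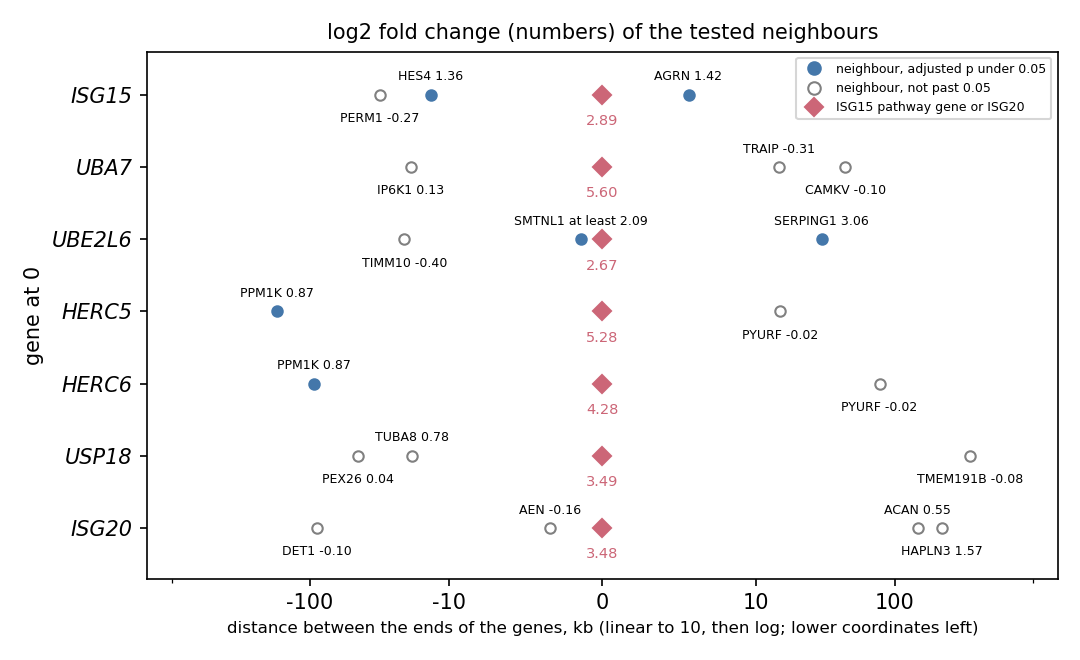
Each row is 1 of the 7 genes at 0, with its tested neighbors placed by distance in kb (linear to 10 kb, logarithmic beyond) and labelled with their edgeR log2 fold changes of BRG1 over Control. Filled points, at an adjusted p under 0.05, stand beside ISG15, UBE2L6, HERC5 and HERC6, and PPM1K appears for both HERC genes.

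The genes whose pattern over the 6 samples was most like the mean log2 CPM of the 7 genes were CYSLTR2, IGFL1, TNFSF10, WFDC11 and IL36G, of 14218 compared. Their Pearson correlations ran from 0.9992 to 0.9997. The 6 points form 2 groups, and 771 genes reached 0.95, so that the order at the top separates little. IGFL1 was at 0.589, 0.488 and 0.361 CPM in Control and at 258, 225 and 156 CPM in BRG1 samples. TNFSF10, the death ligand TRAIL, had no count in Control and was at 9.18, 7.39 and 4.89 CPM in BRG1 samples, at least 104-fold higher than a floor of 3 counts in each Control library. CYSLTR2, WFDC11 and IL36G also had no count in Control and were at 0.361 to 1.66 CPM in BRG1 samples. For TNFSF10 and these 3 genes, the Control side of the correlation comes only from the 0.5 counts added before the log2.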

How the data were processed

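RNA-seq of 3 Control and 3 BRG1 samples was used. The authors aligned reads with STAR 2.5.3a to hg38, quantified transcripts with Salmon 0.8.2 and summed them to genes, per the study's methods and the submitters' processing notes. They deposited estimated counts per gene symbol from length-scaled TPM, which are not divided by library size. Libraries did not keep strand, and Salmon's model divides reads among similar genes. Here the estimated counts were rounded. Of 19899 genes, 18096 had a count and 14225 reached 10 counts in 3 or more samples and were tested. USP41, UBD, TREX1 and SMTNL1 reached 10 counts in the BRG1 libraries alone. They could be tested only because they were high there, which limits what their calls mean.

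BRG1 was compared with Control by the quasi-likelihood test of edgeR 4.0.16 (R 4.3.3) with TMM factors and Benjamini-Hochberg adjustment over all genes tested. A gene was called at an adjusted p under 0.05. CPM used TMM-scaled library sizes. DESeq2, the study's tool, was an alternative here (version 1.42.0), and so were limma 3.58.1 (voom), RLE factors, no filter, a stricter threshold, a replicate block and leaving out each replicate. Each fit was tested on simulated data. Standard errors were worked back from the test, as the absolute log2 fold change over the square root of its F statistic. The 95% intervals were built from them. The p-values take in only the spread between these samples, with dispersions moderated over all genes tested.

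The members and lists were chosen with earlier results of these data known. Named genes were the 7 members, their nearest relatives, the genes called in each list (the 3 largest changes at 1 CPM or more where over 5 were called), called neighbors and the 5 genes most like the members. Deviations from group means correlated at Pearson r 0.324, 0.268 and 0.459 between samples of the same number, and at -0.336 to 0.069 between others. Deviations within a group cancel, so positive values for the same number push the others down, and the contrast is partly arithmetic. The numbers, from the sample titles, were taken to pair the samples only in the replicate block. The main fit left this pairing out, so its calls, standard errors and intervals are unpaired. Replicates differed by more than sampling noise, so none was counted as a duplicate. Some genes counted in the lists are not reported here by name.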

Additional observations from a re-analysis of the deposited data

How the results depend on the processing

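All 7 members were called higher in every alternative, with log2 fold changes from 2.87 to 2.97 for ISG15, 5.20 to 6.05 for UBA7, 2.56 to 2.81 for UBE2L6, 5.08 to 5.56 for HERC5, 4.20 to 4.42 for HERC6, 3.38 to 3.61 for USP18 and 3.07 to 3.83 for ISG20. Since the 7 members were picked on this contrast, their calls in each refit are descriptions and test nothing. Over all genes tested, 9.23% were called higher in the main fit and 13.3% with the replicate block in edgeR. In edgeR the replicate block changed no call of a member, relative, list gene or neighbor beyond those given with the results. With the block in DESeq2 the calls of TREX1 (adjusted p 0.0511) and SMTNL1 (adjusted p 0.0679) were lost. Without the filter on low counts the SMTNL1 call was lost in edgeR as well (edgeR adjusted p 0.0547). The folds of UBA7 and ISG20 rest on 6 to 22 counts in Control libraries. The cause of the changes below was not tested, except that leaving out a library leaves fewer samples and a stricter threshold passes fewer genes.

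With the replicate block, edgeR called 783 genes lower in place of 140, and DESeq2 with the block called 1035 lower and 2095 higher in place of 1313. DESeq2 without it called 294 lower, and an adjusted p under 0.01 left 31. Leaving out a replicate gave 634 (without BRG1 2) to 1209 genes higher and 22 (without BRG1 2) to 188 lower.

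With the replicate block in edgeR the lists had 2 cofactors higher, 3 E2 genes higher, 2 HECT ligases higher, 7 interferon signalling genes higher, 1 E1 gene lower, 3 ubiquitin-specific proteases lower and 2 exonucleases lower. With the block in DESeq2 these were 2, 3, 2, 7, 2, 4 and 2, and 2 E2 genes and 1 ISG15 carrier were called lower too. DESeq2 without the block called 2 cofactors and 2 E2 genes higher. At an adjusted p under 0.01, 1 modifier was higher and 1 lower, 1 protease was higher and 0 lower, 0 exonucleases were higher and 2 neighbors were called. Leaving out each replicate in turn gave 1 to 2 cofactors and 1 to 2 E2 genes higher, 0 to 2 modifiers higher and 1 to 2 lower, 0 to 3 proteases higher and 0 to 1 lower, 0 to 1 exonucleases higher and 2 to 4 neighbors called.

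Log2 fold changes near 0 changed sign among the relatives, and none of these genes was called in any alternative. UBA1 was at 0.0043 with RLE factors, 0.0004973 with DESeq2 and 0.0039 with DESeq2 and the block. ISG20L2 was at 0.0016 with RLE factors, 0.0033 with limma-voom and 0.0052 with DESeq2 and the block. Leaving out each replicate gave -0.0663 to 0.0668 for UBA1, -0.0733 to 0.114 for ISG20L2, -0.0631 to 0.0934 for UBB, -0.0631 to 0.00411 for UBE2L3 and -0.375 to 0.0398 for AEN.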
